A study of Mus musculus with 11 samples.

Results

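The genes described here are 8 that mark fibro-adipogenic progenitors of skeletal muscle or belong to platelet-derived growth factor (PDGF) signalling: the receptors Pdgfra and Pdgfrb, the ligands Pdgfa, Pdgfb and Pdgfc, and the progenitor markers Cd34, Ly6a and Osr1. They were found by symbol among the 21759 gene symbols of the table, and all 8 were found. Where a symbol had more than 1 probe set, the brightest stood for the gene, which applied to Pdgfa. Messenger RNA was measured in the tibialis anterior (TA), a muscle of the lower hind limb, from 11 male mice of 14 weeks of age, with 1 Affymetrix Mouse Gene ST 1.1 array per mouse. The 3 C57 mice were wildtype and untreated, of the strain given as C57/B10. The 4 *mdx* mice, on the same C57/B10 background, lack dystrophin through a nonsense mutation of Dmd and were untreated. The other 4 *mdx* mice had received Pip6e-PMO once, by tail vein injection of 12.5 mg/kg when they were 12 weeks old. Pip6e-PMO is a morpholino antisense oligonucleotide joined to a cell-penetrating peptide, and it makes muscle skip the mutated exon of the Dmd transcript. No injected control mice are among the 11, so the oligonucleotide and the injection cannot be told apart.

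Fibro-adipogenic progenitors are mesenchymal cells that lie between muscle fibres. After injury they divide, secrete matrix and factors that help satellite cells, and are then cleared, whereas in dystrophic muscle they persist and can become fibroblasts or fat cells. PDGF ligands are secreted dimers that join receptor tyrosine kinases in pairs: PDGF-A and PDGF-C act mainly on the alpha receptor, which marks these progenitors, while PDGF-B also acts on the beta receptor of pericytes and smooth muscle.

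Relative to C57, untreated *mdx* muscle had more Cd34 transcript, by 1.36-fold, and treated *mdx* muscle had more Pdgfra, Pdgfrb and Cd34, by 2.08-fold, 1.28-fold and 1.36-fold. Ly6a was 1.5-fold lower in treated than in untreated *mdx* muscle and 1.31-fold lower than in C57 muscle. The ligands Pdgfa, Pdgfb and Pdgfc and the transcription factor gene Osr1 passed the test in none of the 3 comparisons. Called means a Benjamini-Hochberg adjusted p under 0.05 from limma, fitted across the 14494 probe sets whose mean linear signal reached 30 in 1 or more of the groups. All 8 members reached that signal in every group. All values below are log2 signals or differences of mean log2 signals, with SD over the mice of a group or SE of the difference.

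Whole-muscle RNA was measured, so fewer cells of a type and less RNA per cell cannot be told apart. The 6 muscle fibre genes Ckm, Acta1, Myh4, Tnnt3, Actn3 and Mb were called by limma in no comparison, 0 of them at an unadjusted p under 0.05 and 0 by the methods' test, with differences between -0.06 and 0.05, and their mean log2 signals lay between 12.34 and 13.28. Of all 14494 probe sets, limma called 12.0% for *mdx* against C57, 11.1% for treated against *mdx* and 24.6% for treated against C57. Treated mouse 2 stood apart from its group: its median absolute log2 distance to the other treated mice was 0.257, against 0.103 to 0.177 for the other 10 mice. By its number it is sample T2 of the study, which reports the lowest exon skipping by RT-qPCR and the lowest dystrophin by mass spectrometry in T2. Western blot values did not correlate significantly with either, and T2 is reported with the least restored mRNA. Whether its distance here follows from this was not tested. The treated group enters both of its comparisons with the same 4 mice, and each untreated group enters 2 comparisons.

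**Figure D1:**
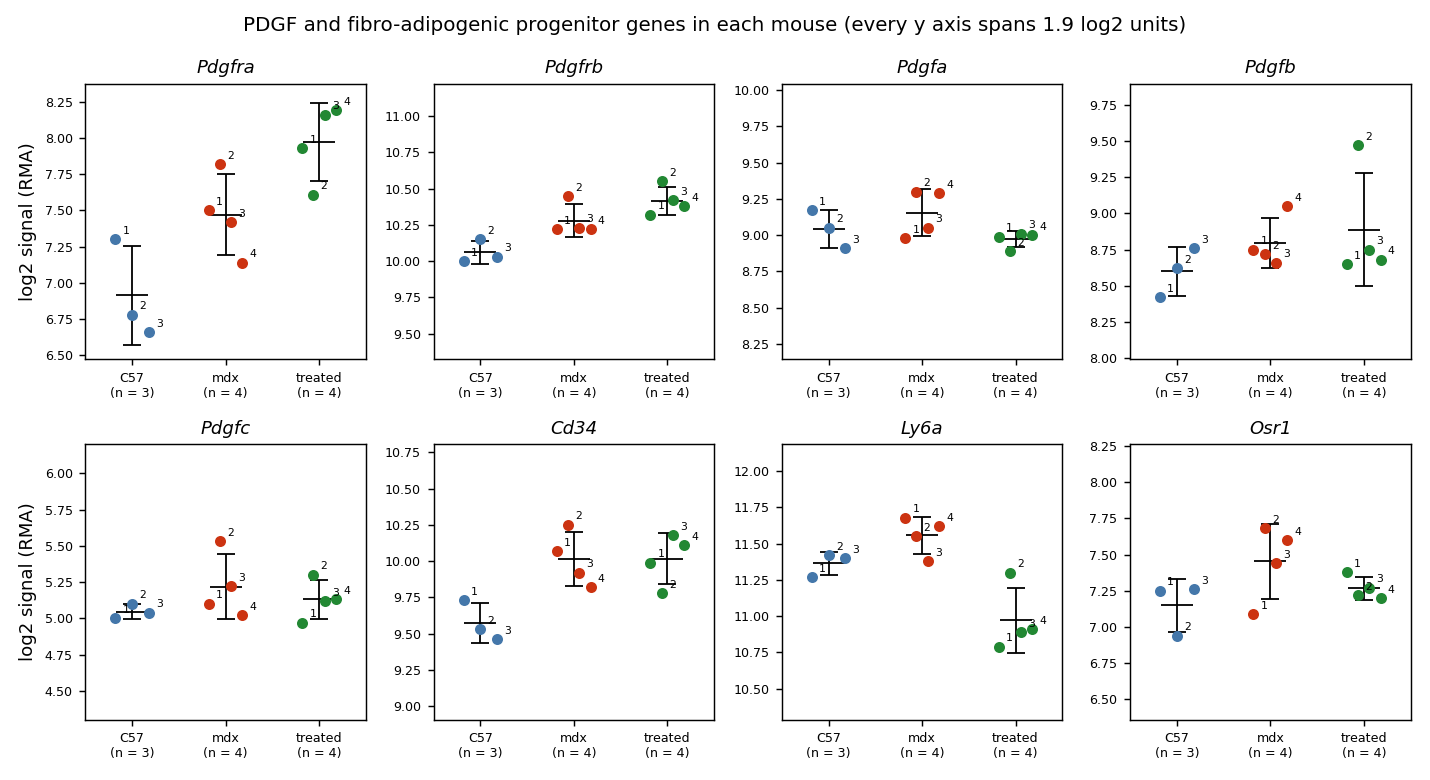
The log2 signal of each of the 8 genes (vertical axes, each with its own range) in each of the 11 mice, by group, with a bar at the mean of the group. The mean of Pdgfra was 6.91 in C57, 7.47 in *mdx* and 7.97 in treated mice, with only the treated and C57 mice apart, Cd34 was higher in both *mdx* groups, and Ly6a was lowest in 3 of the 4 treated mice.

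Promoter sequence was at hand for 4 of the 8 genes, in RefSeq's annotation of GRCm38.p6, as the window from 250 bases before to 50 bases after the transcription start. Pdgfra and Cd34, the called members with an entry, are printed with Pdgfa, a ligand that was not called. The windows are written 5′ to 3′, with CG dinucleotides in capitals. For Pdgfa the annotated start with the most CG was picked, so its distance from the others in CG is partly built in by that choice.

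Pdgfra, chr5:75152001-75152300, plus strand: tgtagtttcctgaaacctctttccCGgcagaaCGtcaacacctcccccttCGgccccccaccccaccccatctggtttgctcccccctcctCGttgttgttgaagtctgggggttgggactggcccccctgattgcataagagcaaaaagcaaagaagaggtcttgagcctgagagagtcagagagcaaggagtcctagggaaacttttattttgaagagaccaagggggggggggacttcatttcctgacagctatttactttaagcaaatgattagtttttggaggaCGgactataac

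Cd34, chr1:194938571-194938870, plus strand: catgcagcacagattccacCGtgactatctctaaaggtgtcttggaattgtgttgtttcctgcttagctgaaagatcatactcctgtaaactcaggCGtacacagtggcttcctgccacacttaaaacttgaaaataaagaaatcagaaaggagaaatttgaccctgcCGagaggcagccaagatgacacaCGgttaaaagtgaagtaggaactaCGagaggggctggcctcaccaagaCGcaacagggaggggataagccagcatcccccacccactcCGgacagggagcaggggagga

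Pdgfa, chr5:138994895-138995194, minus strand: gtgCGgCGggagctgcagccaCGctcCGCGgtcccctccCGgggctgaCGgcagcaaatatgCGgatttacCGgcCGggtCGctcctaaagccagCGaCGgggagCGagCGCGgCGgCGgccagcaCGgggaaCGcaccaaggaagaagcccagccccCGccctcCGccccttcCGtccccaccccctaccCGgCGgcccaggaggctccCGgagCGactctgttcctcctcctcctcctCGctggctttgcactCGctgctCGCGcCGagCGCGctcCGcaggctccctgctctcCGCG

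The Pdgfra window held 5 CG dinucleotides, and 38.0% of the 32851 promoter windows of the table held fewer. Cd34 held 7, the median over all windows. The Pdgfa window shown held 37, and 94.4% of windows held fewer. A second annotated Pdgfa start had 24, and Pdgfc had 8. The GC box, searched as GGGCGG on one strand and CCGCCC on the other, which overlaps the CG count, was found in neither Pdgfra, Cd34 nor Pdgfc, 1 time at one Pdgfa start and 2 times at the one shown. It occurs in 35.7% of all windows. These counts describe letters in a fixed window and were tied to no measurement of the arrays.

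Pdgfra encodes the PDGF alpha receptor, the usual sorting marker of fibro-adipogenic progenitors. Its probe set lies at chr5:75548361-75594223 on the plus strand in the deposited annotation, which names no genome build and is not to be set against the GRCm38 positions above. The log2 signals were 7.30, 6.78 and 6.66 in the C57 mice, 7.50, 7.82, 7.42 and 7.14 in the *mdx* mice, and 7.93, 7.61, 8.16 and 8.19 in the treated mice. All 4 treated mice lay above all 3 C57 mice, whereas the *mdx* mice overlapped both other groups, with C57 mouse 1 above *mdx* mouse 4 and treated mouse 2 below *mdx* mouse 2. The means were 6.91 ± 0.34 (SD, n = 3), 7.47 ± 0.28 (SD, n = 4) and 7.97 ± 0.27 (SD, n = 4).

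Treated *mdx* mice exceeded C57 mice in Pdgfra by 1.06 (SE 0.20, 95% interval 0.63 to 1.49), which passed the test (limma adjusted p = 0.00329). The call held in each of the 11 fits that left out 1 mouse, with differences from 0.93 to 1.25. It was lost by the methods' unpaired test with the same adjustment (adjusted p = 0.0551, where limma adjusted p ran up to 0.0207 over those 11 fits). The step from C57 to *mdx* was 0.56 (SE 0.20, 95% interval 0.13 to 0.98, limma adjusted p = 0.0911) and the step from *mdx* to treated 0.50 (SE 0.18, 95% interval 0.11 to 0.90, limma adjusted p = 0.0857). Neither step passed over all 14494 probe sets. Without C57 mouse 1 the first step was 0.75 and was called (limma adjusted p = 0.0344), and without treated mouse 2 the second was 0.62 and was called (limma adjusted p = 0.0243).

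Pdgfrb encodes the PDGF beta receptor, which pericytes, vascular smooth muscle and other mesenchymal cells carry. The log2 signals were 10, 10.15 and 10.03 in the C57 mice, 10.22, 10.45, 10.23 and 10.22 in the *mdx* mice, and 10.32, 10.55, 10.42 and 10.38 in the treated mice. No C57 mouse reached the lowest mouse of either *mdx* group, while the 2 *mdx* groups overlapped through *mdx* mouse 2. The means were 10.06 ± 0.08 (SD, n = 3), 10.28 ± 0.11 (SD, n = 4) and 10.42 ± 0.10 (SD, n = 4), the same order as for Pdgfra over a smaller range.

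For Pdgfrb the treated mice exceeded the C57 mice by 0.36 (SE 0.10, 95% interval 0.15 to 0.57, limma adjusted p = 0.0202), a 1.28-fold difference. The *mdx* mice exceeded the C57 mice by 0.22 (limma adjusted p = 0.178) and the treated exceeded the untreated *mdx* mice by 0.14 (limma adjusted p = 0.314). The call against C57 was lost without C57 mouse 1 (0.33, limma adjusted p = 0.0611) or C57 mouse 3 (0.34, limma adjusted p = 0.0679), with the difference itself little changed.

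Pdgfa encodes the PDGF-A chain, a ligand of the alpha receptor. Its brighter probe set, at chr5:139451968-139470907 on the minus strand of the deposited annotation, gave 9.17, 9.05 and 8.91 in the C57 mice, 8.98, 9.30, 9.05 and 9.29 in the *mdx* mice, and 8.99, 8.89, 9.01 and 9.0 in the treated mice. The 3 groups overlapped, and the treated mice were the most alike, with an SD of 0.06. The *mdx* minus C57 difference was 0.11 (limma adjusted p = 0.587), treated minus *mdx* was -0.18 (limma adjusted p = 0.229) and treated minus C57 was -0.07 (limma adjusted p = 0.648). A second probe set that carries the symbol Pdgfa lies on the opposite strand, at chr5:139471012-139471968, beginning after a gap of 104 bases past the end of the first. It was dim, at mean linear signals of 33.4, 30.1 and 30.4 in C57, *mdx* and treated mice, close to the minimum of 30, and its own *mdx* minus C57 difference of -0.15 had the opposite sign (limma adjusted p = 0.349).

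Pdgfb encodes the PDGF-B chain, which endothelial cells release and which recruits pericytes. The log2 signals were 8.42, 8.62 and 8.76 in the C57 mice, 8.75, 8.72, 8.66 and 9.05 in the *mdx* mice, and 8.65, 9.47, 8.75 and 8.68 in the treated mice. Treated mouse 2 was the highest of all 11 mice and the other 3 treated mice lay within or just below the range of the *mdx* mice. The differences were 0.20 for *mdx* minus C57 (limma adjusted p = 0.586), 0.09 for treated minus *mdx* (limma adjusted p = 0.752) and 0.29 for treated minus C57 (limma adjusted p = 0.269). Without treated mouse 2 the treated minus *mdx* difference of Pdgfb turned to -0.10 (limma adjusted p = 0.521).

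Pdgfc encodes the PDGF-C chain, a ligand of the alpha receptor that is secreted in a latent form and cut by tissue plasminogen activator. The log2 signals were 5.0, 5.10 and 5.04 in the C57 mice, 5.10, 5.53, 5.22 and 5.02 in the *mdx* mice, and 4.97, 5.30, 5.12 and 5.13 in the treated mice. All groups overlapped, and mean linear signals of 33.1, 37.6 and 35.1 were close to the minimum, where a difference is compressed. The differences were 0.17 for *mdx* minus C57 (limma adjusted p = 0.452), -0.09 for treated minus *mdx* (limma adjusted p = 0.64) and 0.08 for treated minus C57 (limma adjusted p = 0.646).

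Cd34 encodes a sialomucin of the surface of progenitors and endothelial cells. Its probe set lies at chr1:196765080-196787475 on the plus strand of the deposited annotation, and its log2 signals were 9.73, 9.53 and 9.46 in the C57 mice, 10.07, 10.25, 9.92 and 9.82 in the *mdx* mice, and 9.99, 9.78, 10.18 and 10.11 in the treated mice. Every mouse of both *mdx* groups lay above the highest C57 mouse, and the 2 *mdx* groups covered nearly the same range. The means were 9.57 ± 0.14 (SD, n = 3), 10.02 ± 0.19 (SD, n = 4) and 10.02 ± 0.18 (SD, n = 4).

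The *mdx* minus C57 difference of Cd34 was 0.44 (SE 0.13, 95% interval 0.16 to 0.72, limma adjusted p = 0.0454), and the treated minus C57 difference was also 0.44 (limma adjusted p = 0.0292). Treated and untreated *mdx* mice had the same mean, with a 95% interval of the difference from -0.26 to 0.26. The *mdx* minus C57 call was close to the threshold: it was lost in 8 of the 11 fits that left out 1 mouse, those without C57 mouse 2 or 3, *mdx* mouse 1, 2 or 3, or treated mouse 1, 3 or 4, at adjusted p up to 0.157 and differences from 0.36 to 0.52 over all 11 fits. The treated minus C57 call was lost without C57 mouse 2 or 3 or treated mouse 3 or 4, at adjusted p up to 0.112.

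Ly6a encodes Sca-1, a lipid-anchored protein of the cell surface found on fibro-adipogenic progenitors and on endothelial cells. Its probe set lies at chr15:74825307-74828334 on the minus strand of the deposited annotation and is of the class whose probes match a single place. The log2 signals were 11.27, 11.42 and 11.40 in the C57 mice, 11.68, 11.55, 11.38 and 11.62 in the *mdx* mice, and 10.79, 11.30, 10.89 and 10.91 in the treated mice. All 4 treated mice lay below all 4 untreated *mdx* mice, and 3 of them lay well below the C57 mice too, with treated mouse 2 the exception. The means were 11.36 ± 0.08 (SD, n = 3), 11.56 ± 0.13 (SD, n = 4) and 10.97 ± 0.22 (SD, n = 4).

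Treated minus *mdx*, the difference of Ly6a was -0.58 (SE 0.12, 95% interval -0.84 to -0.33, limma adjusted p = 0.016), and treated minus C57 it was -0.39 (SE 0.13, limma adjusted p = 0.041). The *mdx* minus C57 difference, 0.19, did not pass (limma adjusted p = 0.38). The difference between treated and untreated *mdx* mice was -0.69 without treated mouse 2 (limma adjusted p = 0.00202), and the call was lost, at -0.56, without treated mouse 3 (limma adjusted p = 0.0503) or treated mouse 4 (limma adjusted p = 0.0527). The call against C57 was lost in 7 of 11 such fits, without any 1 of the C57 mice, *mdx* mouse 2, or treated mouse 1, 3 or 4, at adjusted p up to 0.122. It was also lost in 5 of 10 other processing settings.

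Osr1 encodes a zinc finger transcription factor of the embryonic connective tissue and of activated progenitors. The log2 signals were 7.25, 6.94 and 7.26 in the C57 mice, 7.09, 7.68, 7.44 and 7.60 in the *mdx* mice, and 7.38, 7.22, 7.27 and 7.20 in the treated mice. The *mdx* mice 2, 3 and 4 were above every other mouse and *mdx* mouse 1 was among the lowest, so that the groups overlapped. The differences were 0.30 for *mdx* minus C57 (limma adjusted p = 0.203), -0.19 for treated minus *mdx* (limma adjusted p = 0.35) and 0.12 for treated minus C57 (limma adjusted p = 0.556). Without *mdx* mouse 1 the *mdx* minus C57 difference of Osr1 was 0.42 and was called (limma adjusted p = 0.0437).

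**Figure D2:**
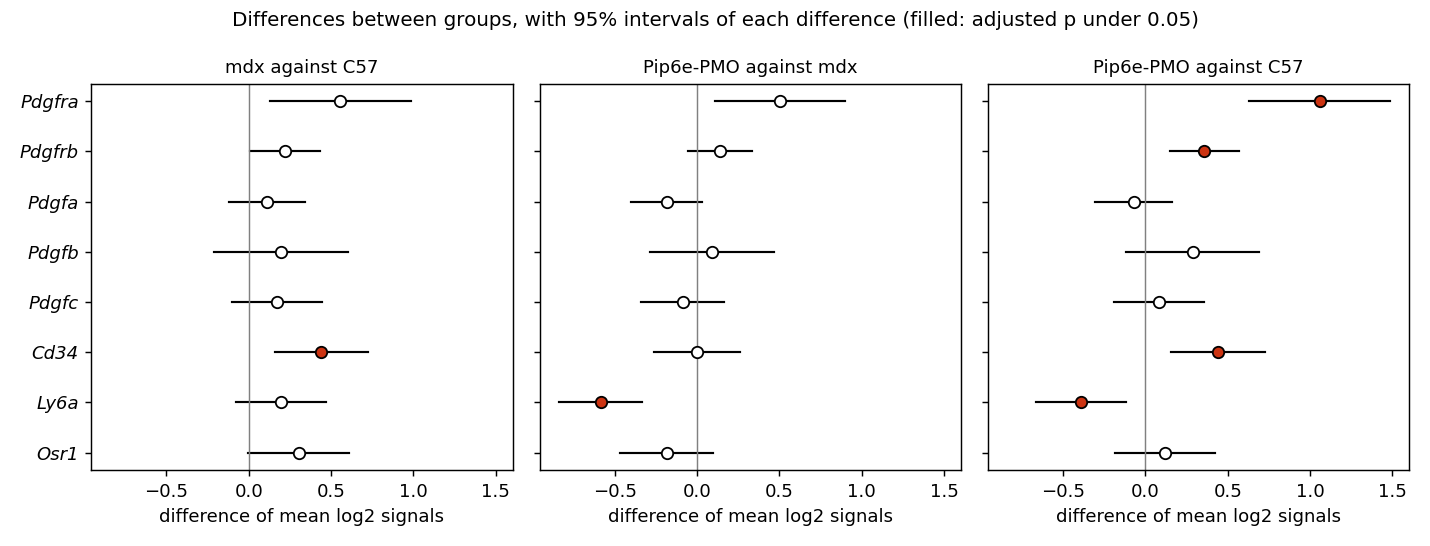
Differences of mean log2 signal for the 8 genes (horizontal axes) in the 3 comparisons, with the 95% interval of each difference from limma, filled where the adjusted p is under 0.05. Filled points are Cd34 in *mdx* against C57 (0.44), Ly6a in treated against *mdx* (-0.58), and Pdgfra (1.06), Pdgfrb (0.36), Cd34 (0.44) and Ly6a (-0.39) in treated against C57.

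Counted over the 8 genes, 1 was called between *mdx* and C57, where 12.0% of all 14494 probe sets were called, 7.06% as higher and 4.96% as lower in *mdx*. It was Cd34, on the higher side. All 8 differences were above 0 and their median was 0.21, against -0.01 over all probe sets. The groups did not overlap for 2 of the 8, Pdgfrb and Cd34, where 24.3% of all probe sets did not overlap. In treated against untreated *mdx* mice 1 of 8 was called, Ly6a on the lower side, where 11.1% of all probe sets were, 7.26% as higher and 3.88% as lower in treated mice, and 3 of the 8 differences were above 0, with a median of -0.04 against 0.02 over all. The groups did not overlap for 1 gene, Ly6a, against 16.0% of all probe sets. Between treated mice and C57 4 of 8 were called, where 24.6% of all were. The 3 higher members stood against 15.6% of all as higher, and the 1 lower against 8.96% as lower. The groups did not overlap for 3, Pdgfra, Pdgfrb and Cd34, against 32.0% of all. The median difference there was 0.20 against 0.00 over all. By the methods' unpaired test with the same adjustment, of the 4 only Pdgfrb was called (adjusted p = 0.0454), while Pdgfra was at 0.0551, Cd34 at 0.0899 and Ly6a at 0.136. That test called 8.79% of all probe sets there. With 8 genes, these shares are coarse, and those of the first 2 comparisons lie near the background. Without treated mouse 2, 2 genes were called between treated and untreated *mdx* mice, Pdgfra and Ly6a, in a fit that called 4123 of all probe sets where the fit of 11 mice called 1615.

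The genes most like each called member over the 11 mice were found by Pearson correlation, as a description over points that share 3 groups. Pdgfra was followed most closely by Uhrf2 (r = 0.98, n = 11), Ednra, the endothelin A receptor (r = 0.97, n = 11), and Nap1l1 (r = 0.97, n = 11). After each group's mean was removed, the correlations of Pdgfra with these genes were 0.94, 0.92 and 0.88. The genes were picked by correlation over these same 11 mice, so high values here are partly built in by that choice. Pdgfrb was followed by Actr3, a subunit of the actin-branching Arp2/3 complex (r = 0.96, n = 11), Dpy19l1 (r = 0.95, n = 11) and Mtpn (r = 0.95, n = 11). Cd34 was followed by Ifngr1, an interferon gamma receptor chain (r = 0.96, n = 11), Rhoj, a small GTPase of endothelial cells (r = 0.95, n = 11), and Snapin (r = 0.94, n = 11). Ly6a was followed by B3gnt3, a glycosyltransferase (r = 0.98, n = 11), and by its neighbours Ly6c2 and Ly6c1 (r = 0.97 each, n = 11).

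Ly6c1 and Ly6c2 belong to the Ly6 cluster that holds Ly6a on chromosome 15 and encode the Ly6C antigens of monocytes and endothelial cells. Of 9 other Ly6 genes listed, 4 reached the minimum signal, and Ly6g, Ly6h, Ly6k, Ly6f and Ly6i did not. Ly6c1, at chr15:74875443-74879260 in the deposited annotation, had log2 signals of 11.63, 11.71 and 11.71 in the C57 mice, 11.98, 11.90, 11.72 and 11.84 in the *mdx* mice, and 11.10, 11.67, 11.44 and 11.26 in the treated mice. As for Ly6a, the treated mice lay below every *mdx* mouse and treated mouse 2 was the highest of them. Treated minus *mdx*, the difference was -0.49 for Ly6c1 (limma adjusted p = 0.0263) and -0.47 for Ly6c2 (limma adjusted p = 0.0284), and Ly6c2 was also lower than in C57, at -0.38 (limma adjusted p = 0.0456).

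Ly6e was measured at -0.22 (limma adjusted p = 0.152) and Ly6d at -0.11, neither called. So 2 of the 4 measured genes of this list were lower in treated than in untreated *mdx* mice and none was higher. Of all 14494 probe sets, 3.88% were lower and 7.26% higher there. The probe sets of Ly6c1 and Ly6c2 are of the class that holds probes matching several places, 3118 of the 28350 probe sets, so signals of near-identical Ly6 transcripts can be mixed in them, while those of Ly6a and Ly6e are not of that class. None of the list's calls held in all 11 fits that left out 1 mouse: without *mdx* mouse 1, 2 or 4, or treated mouse 1, 3 or 4, 0 of the 4 were called between treated and untreated *mdx* mice.

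**Figure D3:**
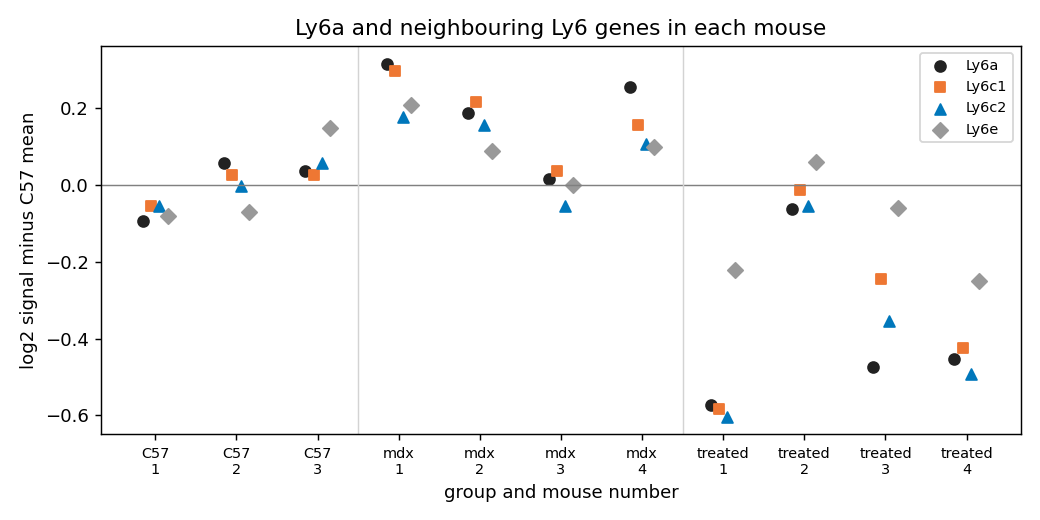
The log2 signal of Ly6a, Ly6c1, Ly6c2 and Ly6e in each of the 11 mice (horizontal axis) as the difference from that gene's own C57 mean (vertical axis). Ly6a, Ly6c1 and Ly6c2 sit together below the C57 mean in treated mice 1, 3 and 4 and near it in treated mouse 2, whose Ly6a is 11.30, while Ly6e moves less.

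Other genes of PDGF signalling were taken from a list of 22: a ligand, a receptor-like gene, proteases that cut latent ligands, binding partners, co-receptors and the adaptors and enzymes that bind the active receptors. Of these, 21 reached the minimum signal in every group. Pdgfd reached it only through the treated group, so its test was open only because it was high there, and it is described without one and kept out of the counts, a choice made after its values were seen. Between *mdx* and C57, 2 of the 21 were higher and 0 lower, a called share of 9.52% against 11.1% of the 13272 probe sets that reached the minimum in every group. The median difference was 0.16 against -0.015 over those probe sets, and the groups did not overlap for 8 of the 21, where 23.3% of all did not. Plat, tissue plasminogen activator, which releases active PDGF-C, had log2 signals of 6.32, 5.78 and 5.95 in the C57 mice, 6.67, 6.83, 6.92 and 6.67 in the *mdx* mice, and 6.67, 6.67, 6.96 and 6.79 in the treated mice. Every mouse of both *mdx* groups exceeded every C57 mouse. Plat rose by 0.76 between C57 and *mdx* (SE 0.13, limma adjusted p = 0.00335), a call that held in each of the 11 fits that left out 1 mouse. Lrp1, an endocytic receptor that binds the beta receptor, rose by 0.46 (limma adjusted p = 0.038), a call lost in 8 of those fits. Without treated mouse 2 the list had 5 calls, in a fit that called 15.2% of all probe sets.

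Of the 21 PDGF genes, 2 were higher in treated than in untreated *mdx* mice and 1 lower, a called share of 14.3% against 10.8% of all, with a median difference of 0.04 against 0.02. Pdgfd, the ligand of the beta receptor, had log2 signals of 4.51, 4.49 and 4.67 in the C57 mice, 4.49, 4.44, 4.72 and 4.30 in the *mdx* mice, and 5.02, 4.91, 5.62 and 5.18 in the treated mice. Each treated mouse was above every other mouse, and only the treated group reached the minimum signal, at mean linear signals of 23.6, 22.6 and 37.0 in C57, *mdx* and treated mice. The difference of means was 0.70 for treated minus *mdx* and -0.07 for *mdx* minus C57. Nrp1, a co-receptor for several growth factors, was higher by 0.76 (limma adjusted p = 0.0319), and Crk, an adaptor that binds the alpha receptor, by 0.41 (limma adjusted p = 0.0404). Slc9a3r1, a scaffold protein that binds PDGF receptors, was lower, at -0.54 (limma adjusted p = 0.0388).

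None of these 3 calls held in all 11 fits that left out 1 mouse, and the count ran from 0, without *mdx* mouse 3 or 4 or treated mouse 1, 3 or 4, to 8, without treated mouse 2. It was 1 without C57 mouse 1 or 2 or *mdx* mouse 2. Over those 11 fits, 2.04% to 28.4% of all probe sets were called, the most without treated mouse 2. Against C57, 6 of the 21 were higher in treated mice, where 14.4% of all were higher, and 1 lower, where 8.87% were lower, with a median of 0.26 against 0.00. The higher genes were Plat (0.76), Lrp1 (0.50), Nrp1 (0.84), Crk (0.37), the Ras regulator Rasa1 (0.64) and the adaptor Nck1 (0.67), and the lower one was the scaffold gene Slc9a3r2 (-0.62). Of these 7 calls, 4 held in all 11 fits, and the count was 4 without C57 mouse 3.

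The list of 21 other genes used to mark fibro-adipogenic progenitors and related fibroblasts had 14 that reached the minimum signal in every group, and Dpp4, Nt5e, Il33 and Adam12 reached it in none. Cd55, Fap and Mme reached it only in groups where they were high, and were likewise kept out of the counts and given without a test. Between *mdx* and C57, 5 of the 14 were higher, where 6.22% of all were higher, and 1 lower, where 4.93% were lower. The groups did not overlap for 9 of the 14, against 23.3% of all. The median difference over all 21 listed was 0.36, with the genes left out of the counts included. It was -0.015 over the probe sets that reached the minimum in every group, so these medians are over unlike sets. Lum, the collagen-binding proteoglycan lumican, had log2 signals of 6.54, 6.66 and 6.79 in the C57 mice, 8.74, 8.37, 8.56 and 7.21 in the *mdx* mice, and 8.17, 8.58, 8.58 and 8.42 in the treated mice. All *mdx* and treated mice lay above all C57 mice, with *mdx* mouse 4 the lowest of them.

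Lum rose by 1.56 (SE 0.29, limma adjusted p = 0.00419) between C57 and *mdx*. The microfibril genes Fbn1 and Mfap5 rose by 0.74 (limma adjusted p = 0.00454) and 0.83 (limma adjusted p = 0.00438), the chemokine gene Cxcl14 by 0.72 (limma adjusted p = 0.0063) and the matrix gene Dpt by 0.51 (limma adjusted p = 0.0261). The complement regulator gene Cd55 and the protease gene Fap, with C57 means under the minimum signal, had differences of 0.88 and 0.79. Osr2, the paralogue of Osr1, was the gene that fell, at -0.86 (limma adjusted p = 0.00201), where Osr1 was at 0.30 and not called. Of the 6 calls, those of Lum, Fbn1, Mfap5, Cxcl14 and Osr2 held in all 11 fits that left out 1 mouse.

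Of the 14 progenitor genes, 0 were higher in treated than in untreated *mdx* mice, where 7.06% of all were, and 1 was lower, where 3.77% were, Pi16, which marks a fibroblast subset of the vessel surroundings. Its log2 signals were 7.38, 7.10 and 7.67 in the C57 mice, 7.79, 7.48, 8.59 and 7.04 in the *mdx* mice, and 6.76, 7.01, 6.26 and 6.84 in the treated mice. The treated mice lay below all others, with treated mouse 2 close to *mdx* mouse 4. The difference, -1.01 (limma adjusted p = 0.0397), was not called in 8 of the 11 fits that left out 1 mouse, those without C57 mouse 1 or 2, *mdx* mouse 1, 2 or 3, or treated mouse 1, 3 or 4. Without treated mouse 2, 4 genes of the list, all lower, were called, in a fit that called 28.4% of all probe sets. In the fit of all 11 mice, Lum, Fbn1 and Mfap5 stood at 0.22, 0.13 and -0.38 for treated minus *mdx*, none called. Against C57, 6 of the 14 were higher in treated mice and 1, Osr2, lower, where 23.2% of all were called, with Lum at 1.77 and Fbn1 at 0.87, and this count of 7 was 4 without C57 mouse 2 or treated mouse 3.

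**Figure D4:**
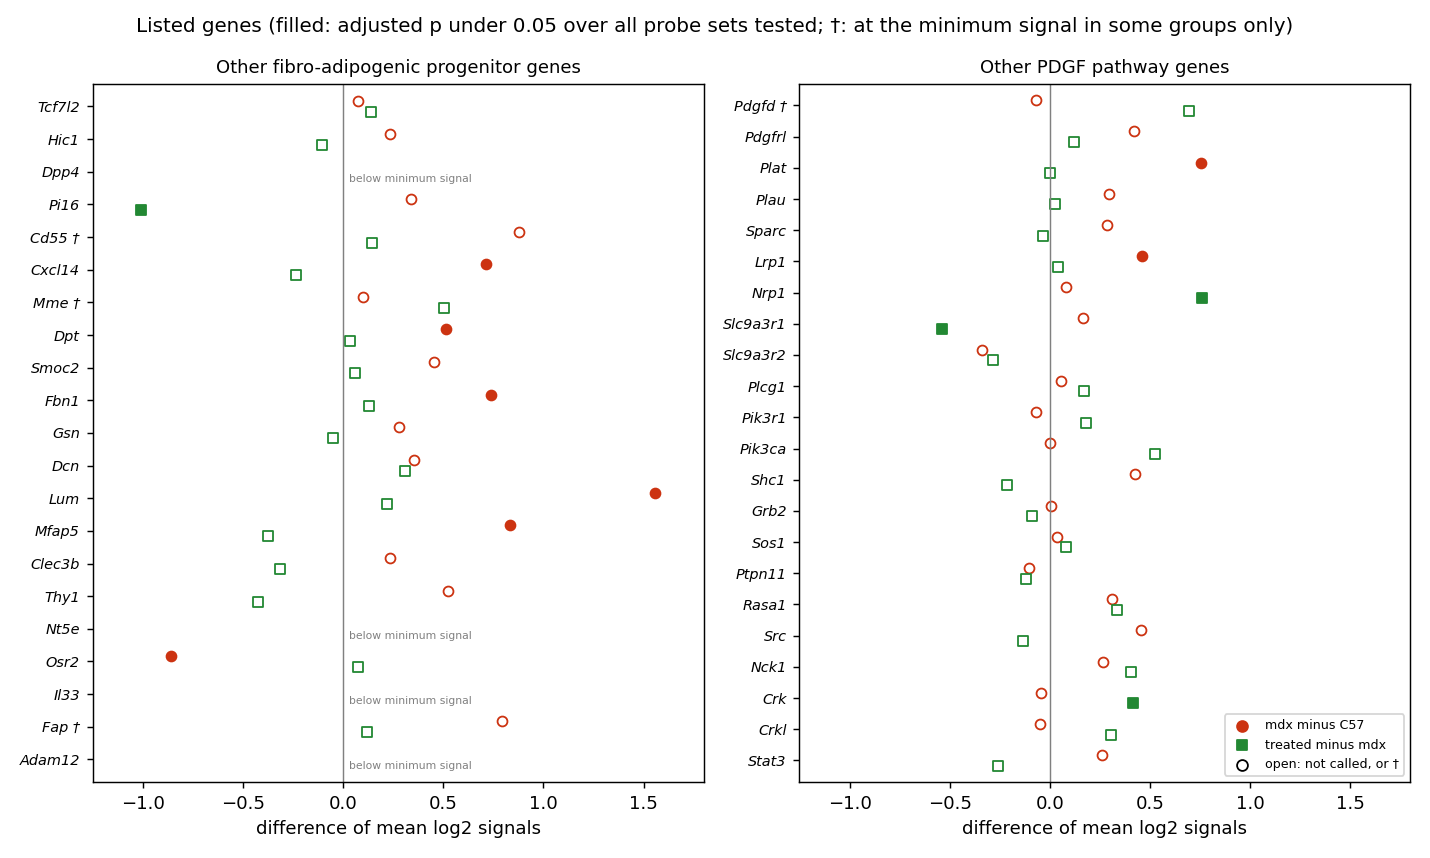
Differences of mean log2 signal (horizontal axes) for the other progenitor genes and the other PDGF genes, as circles for *mdx* minus C57 and squares for treated minus *mdx*, filled where the limma adjusted p is under 0.05 and open for genes marked † that reached the minimum signal only in some groups. Most filled circles of the progenitor list lie to the right, led by Lum at 1.56, with Osr2 at -0.86 to the left, and Pi16 is its only filled square.

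Because Pdgfrb, Cd34 and Ly6a are also carried by cells of the vessel wall, marker lists of those cells were read beside them. The summed linear signal of 10 endothelial genes ranged from 3504 to 3757 in C57, from 3384 to 4060 in *mdx* and from 4114 to 5012 in treated mice, so that every treated mouse was above every other mouse. Of the 10 endothelial genes, 0 were called between *mdx* and C57 by limma, 1 at an unadjusted p under 0.05 and 0 by the methods' test. Of the 13272 probe sets at the minimum signal in every group, limma called 11.1% there. In treated against untreated *mdx* mice 7.06% of the same probe sets were higher. With treatment 3 stood higher than in untreated *mdx* mice, Erg (0.91, limma adjusted p = 0.00287), Pecam1 (0.78, limma adjusted p = 0.0277) and Tek (0.97, limma adjusted p = 0.0332), of which only the call of Erg held in all 11 fits that left out 1 mouse. Ly6a, an endothelial gene too, was lower in the same mice, and Cd34 was at the same mean. Without treated mouse 2, 1 endothelial gene was called between *mdx* and C57, in a fit that called 15.2% of all probe sets. Against C57, 4 of the 10 were higher in treated mice and 0 lower, where 14.4% of the same 13272 probe sets were higher. The 4 were Pecam1 (0.84), Kdr (0.90), Tek (0.89) and Erg (0.81), and only the calls of Kdr and Erg held in all 11 fits. The median difference over the 10 was 0.44, against -0.0025 over those probe sets.

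The summed signal of 10 mural cell genes, which mark pericytes and vascular smooth muscle, ranged from 4706 to 4908 in C57, from 4637 to 5453 in *mdx* and from 5172 to 5901 in treated mice. All 10 endothelial and all 10 mural genes reached the minimum signal in every group. Rgs5, a pericyte gene, rose by 1.02 between untreated and treated *mdx* mice (limma adjusted p = 0.0146), the only mural call there. In that comparison 2 genes were called without *mdx* mouse 1 and 4 without treated mouse 2. Those fits called 8.62% and 28.4% of all probe sets, in that order. Anpep, a membrane peptidase of pericytes and myeloid cells, rose by 1.28 between C57 and *mdx* (limma adjusted p = 1.57e-04). It was the only mural call by limma there, and the methods' test, adjusted, called 2. Limma called 2 without treated mouse 1 or 2, in fits that called 12.5% and 15.2% of all probe sets. Of the 10 differences 4 were above 0. Myh11 was lowest, at -0.51 and not called by limma, with every *mdx* mouse below every C57 mouse. Against C57, 2 mural genes were higher in treated mice, Rgs5 (1.01) and Anpep (0.89), and Tagln of smooth muscle was lower (-0.52). Of the 13272 probe sets at that signal in every group, 14.4% were higher and 8.87% lower there. The share called as higher was 6.22% for *mdx* against C57 and 7.06% for treated against untreated *mdx* mice. The part of these vessel genes in the results for Pdgfrb, Cd34, Ly6a and Pdgfra was not tested.

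The summed signal of 21 other progenitor genes ranged from 7874 to 9016 in C57, from 10167 to 12917 in *mdx* and from 10174 to 12068 in treated mice, so both *mdx* groups lay above C57 and covered each other. Gsn and Dcn, the brightest of them, weigh most in this sum. Macrophage genes, 8 listed of which 6 reached the minimum signal in every group, summed to between 940 and 1371 in C57, 2472 and 3941 in *mdx*, and 2045 and 2605 in treated mice. Of these 6, 5 were higher in *mdx* than in C57, 3 without C57 mouse 3, led by Cd68 (2.12, limma adjusted p = 3.44e-04) and Lyz2 (1.70, limma adjusted p = 1.57e-04). Between treated and untreated *mdx* mice Cd68 was lower (-1.04, limma adjusted p = 0.0245) and Mrc1 higher (0.49, limma adjusted p = 0.0377), and 0 were called without *mdx* mouse 4 or treated mouse 1, 3 or 4. Satellite cell genes, 6 listed and 4 tested, gave 1 call, Itga7, higher by 0.57 in *mdx* than in C57 (limma adjusted p = 0.0319), which was lost in 6 of 11 such fits. Of the 13272 probe sets at the minimum signal in every group, 6.22% were higher in *mdx* than in C57. In treated against untreated *mdx* mice 7.06% of them were higher and 3.77% lower, and 23.2% were called between treated mice and C57.

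**Figure D5:**
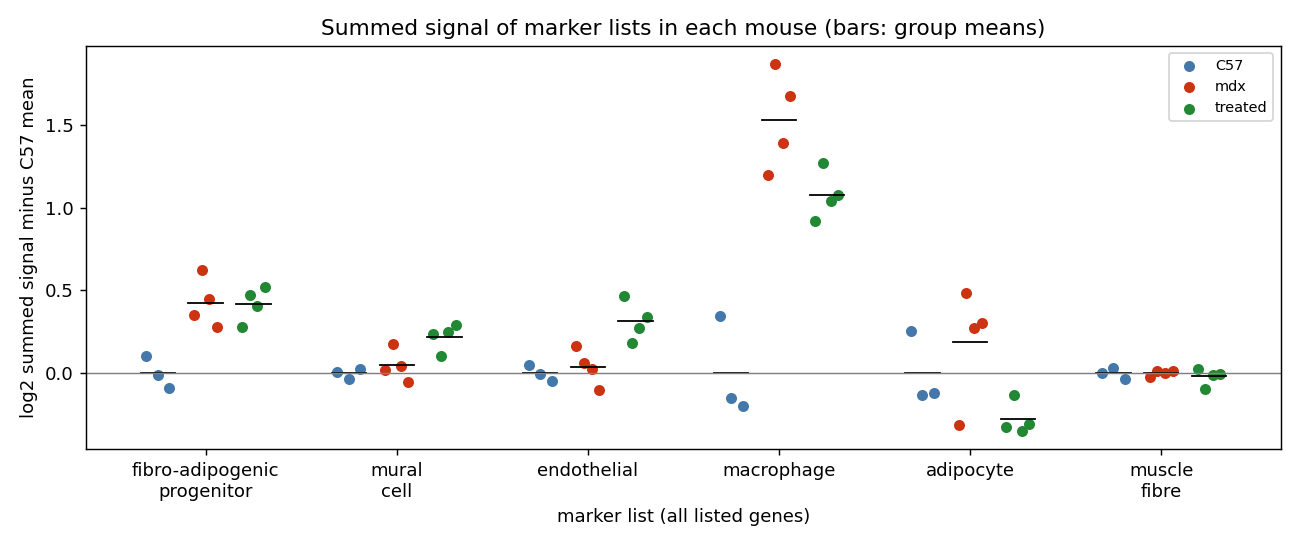
The log2 summed signal of marker lists (horizontal axis) in each mouse, as the difference from the list's own C57 mean (vertical axis), by group, with bars at group means. The progenitor list is higher in both *mdx* groups than in C57, and the endothelial list is highest in the treated mice (linear sums of 4114 to 5012). The muscle fibre list overlaps in all 3 groups, with treated mouse 2 the lowest (linear sum of 41072).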

How the data were processed

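Total RNA from TA cryosections was extracted with TRIzol, and the authors hybridised it to Mouse Gene ST 1.1 arrays. They summarised probes in Affymetrix Expression Console as RMA-sketch, that is, a background model, quantile scaling to a sketch of all arrays and a median polish, and deposited 1 linear intensity per probe set, here taken as log2. Quantile normalization removes any change of total RNA, and the background model compresses differences between dim signals. The low-signal filter of the methods, a signal of 30, was applied here to group means, leaving 14494 of 28350.

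In R 4.3.3, limma 3.58.1 fitted 3 group means over 11 mice, with eBayes and two-sided tests, and p-values were adjusted over all probe sets tested. Each mouse is 1 sample. The number of arrays, 3 or 4 a group, limits the precision, and median array intensities were 27.5 to 28.6. The 8 genes, the lists and the tests were chosen with earlier results of these data known. Text names list genes called in *mdx* against C57 or treated against *mdx*, others chosen after their values were seen, and the 3 genes most correlated with each called member.

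Alternatives were the methods' unpaired test of the 2 groups, other variance priors, array weights, filters, normalizations, probe set rules, a block for mouse number, and leaving out each mouse.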

Additional observations from a re-analysis of the deposited data

Results flagged for a closer look

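In groups of 4 mice, the gap between the highest or lowest mouse and its nearest neighbour was compared with the range of the group by Dixon's test at the 95% level. Over the 8 genes this examined 16 groups, and 3 held a mouse that stood apart, where chance alone gives about 1 in 20 groups. The Pdgfrb signal of *mdx* mouse 2 was 10.45, with the nearest *mdx* mouse at 10.23. The Pdgfa signal of treated mouse 2 was 8.89, with the nearest treated mouse at 8.99, on an opposite side to its Pdgfb signal of 9.47, where the nearest treated mouse was at 8.75. Treated mouse 2 is also the array farthest from the rest of its group over all probe sets.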

How the results depend on the processing

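Over the 24 differences of the 8 genes, direction changed under 4 settings. Pdgfa, *mdx* minus C57, was -0.0192 with the mean of its probe sets. Pdgfb, treated minus *mdx*, was -0.0099 with array weights and ran from -0.1017 (without treated mouse 2) to 0.1775 with 1 mouse left out. Pdgfc, treated minus *mdx*, ran from -0.1533 to 0.0167 (without *mdx* mouse 2). The cause was not tested. Differences under 0.005 were taken to have no direction.

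The count of genes called moved more than the differences did. Between *mdx* and C57, where 1 was called, it was 0 with the methods' test, with no filter, with median centring and with the replicate block, 3 with array weights, and 0 to 2 with 1 mouse left out. The methods' test called 5.46% of all probe sets there and array weights 23.3%. Between treated and untreated *mdx* mice, where 1 was called, the count was 0 with the methods' test, 2 with array weights, and 0 to 2 with 1 mouse left out. Calls over all probe sets ran from 296 to 4123 in the fits that left out 1 mouse. Of all probe sets, the methods' test called 0.607% there and array weights 31.8%. Between treated mice and C57, where 4 were called, the count was 1 with the methods' test, 2 with the replicate block, and 1 to 4 with 1 mouse left out. The share of all probe sets called was 8.79% with the methods' test and 16.1% with the block. Over the 10 settings that kept every mouse, the call against C57 was lost in 5 for Ly6a, 2 for Cd34, 1 for Pdgfra and 0 for Pdgfrb. At the unadjusted threshold of the text of the study, p under 0.01 and 1.5-fold, the methods' test passed 0 genes, 1 (Ly6a) and 1 (Pdgfra) in the 3 comparisons. Of all 14494 probe sets it passed 852, 338 and 1096.

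Over listed genes at the minimum signal in every group, the methods' test, adjusted, called 1 progenitor gene and 1 PDGF gene between *mdx* and C57, 0 of either between treated and untreated *mdx* mice, and 4 and 5 between treated mice and C57, where limma had called 6 and 2, 1 and 3, and 7 and 7. With genes that reached it only in some groups, limma called 8 and 2, 1 and 4, and 10 and 8, and the narrower counts were chosen after seeing the data. Over all 14494 probe sets, the methods' test, adjusted, called 5.46%, 0.607% and 8.79% in the 3 comparisons.

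The mouse numbers mark different animals, and deviations of same-numbered mice correlated between -0.30 and 0.15, so the block does not pair them: it gave 0, 1 and 2 genes called. With the block, 7.90%, 3.44% and 16.1% of all probe sets were called. Pdgfc was not tested at a minimum signal of 100. Signals of Pdgfc and of the second Pdgfa probe set were close to the minimum, where these arrays resolve little.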

Other observations

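Genes of adipocytes, a fate of fibro-adipogenic progenitors, were read as a list of 9, of which 8 were tested. Between *mdx* and C57, 0 of them were called by limma, 0 at an unadjusted p under 0.05 and 0 by the methods' test, with differences from -0.03 to 0.56. Of the 13272 probe sets at the minimum signal in every group, 11.1% were called there by limma. In treated against untreated *mdx* mice 5 were lower, where 3.77% of those 13272 probe sets were: Adipoq at -1.64 (limma adjusted p = 0.0199), Plin1 at -1.56 (limma adjusted p = 0.0254), Cidec at -1.38 (limma adjusted p = 0.0289), Retn at -1.65 (limma adjusted p = 0.0305) and Cfd at -1.94 (limma adjusted p = 0.0224). The other 3 were not called: Fabp4, a fatty acid binding protein gene also expressed by endothelial cells, at 0.26 (limma adjusted p = 0.143), Pparg at 0.115 (limma adjusted p = 0.441) and Cebpa at -0.54 (limma adjusted p = 0.124). The groups overlapped for each of the 5, none held in all 11 fits that left out 1 mouse, and the count was 0 without *mdx* mouse 3 or 4 or treated mouse 3 or 4, 1 without treated mouse 1 and 2 without *mdx* mouse 2. The summed adipocyte signal ranged from 1496 to 1951 in C57, from 1317 to 2290 in *mdx* and from 1286 to 1493 in treated mice. Fabp4 weighs most in this sum, at mean linear signals of 780, 763 and 917 in C57, *mdx* and treated mice. Against C57 4 were lower in treated mice, where 8.87% of those 13272 probe sets were. This count was 0 without C57 mouse 1 or 2, 1 without treated mouse 3 or 4 and 2 without treated mouse 1.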
